A study of Oryza sativa with 12 samples.

Results

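The genes described here are the auxin response factors (ARF) and the Aux/IAA genes (IAA) of rice, 2 families of proteins that bind each other and set how a cell reads auxin. They were taken as every gene whose RefSeq symbol or synonym is ARF or IAA followed by a number and for which the array annotation ties a probe set to that gene alone. This gave 43 of the 17905 genes with such a probe set, 17 ARF and 26 IAA genes. Another 8 named genes (ARF5, ARF6, ARF8, ARF19, ARF21, ARF25, IAA11 and IAA29) had no probe set of their own and were not analysed here. Where a gene had several probe sets, as 9 of the 43 did, the one with the highest mean over the 12 arrays stood for it. Several loci carry 2 numbers in the literature; the names used here follow map order, so that ARF1 (LOC4327785) is also called ARF16, ARF12 (LOC4337363) is also called ARF8, ARF18 (LOC4341882) is also called ARF10 and IAA13 (LOC4334069) is also called IAA1.

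The arrays came from flag leaves of rice plants 10 weeks old, taken at the stage before anthesis. IPT_stressed plants carried PSARK::IPT, a cytokinin synthesis gene under a promoter active in ageing leaves, and had been left without water for 3 days; IPT_watered plants carried the same transgene and were kept watered. WT_stressed plants were wild type and had also gone 3 days without water, and WT_watered plants were watered wild type. Each group had 3 arrays, called biological replicates in the labels, which call the transgenic plants 5T in the array titles without saying what that stands for, and do not give the number of plants behind an array.

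ARF proteins bind auxin response elements in promoters, some activating and others repressing transcription, and Aux/IAA proteins bind to ARF proteins and hold transcription down. Auxin brings Aux/IAA proteins to the TIR1/AFB receptors, which mark them for degradation and so free the ARF proteins. Many Aux/IAA genes are themselves induced by auxin within minutes, whereas most ARF genes are set by development, by miR160 or by tasiR-ARF small RNAs.

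All levels are log2 values made with RMA, so a difference of 1 is a 2-fold change, and n is 3 arrays per group throughout. Levels are not compared between genes, since probe sets differ in brightness. The group names stand for the arrays as labelled, because a check of the labels was not clean. A reporter probe set for a foreign sequence, RPTR-Os-K01193-1_at, averaged 10.16 ± 0.27 (SD) on the arrays labelled IPT_stressed, 2.08 ± 0.08 on IPT_watered, 8.98 ± 0.24 on WT_stressed and 3.48 ± 2.21 on WT_watered, where replicate 3 read 6.03 and the other arrays 2.06 and 2.35. It was high in both groups labelled stressed, whichever the genotype label. The IPT transgene itself was not checked here, and whether the arrays labelled IPT_watered and WT_stressed were exchanged was not tested; every comparison below would change its meaning if they were. Technical measures split by labelled genotype instead. The hybridization spikes averaged 8.09 and 8.09 in the IPT_stressed and IPT_watered groups, against 11.5 and 10.6 in WT_stressed and WT_watered. An 18S rRNA control averaged 8.48 and 9.46 in IPT_stressed and IPT_watered, against 5.87 and 4.83 in WT_stressed and WT_watered. The 3′ minus 5′ difference of a GAPDH control was 3.86 and 3.64 in the same 2 transgenic groups, against 6.90 and 5.99 in the wild-type ones, while a second GAPDH pair gave 0.52 and 0.46 against 0.65 and 0.76. The SD over all probe sets was 2.21, 2.18, 1.95 and 2.06 in IPT_stressed, IPT_watered, WT_stressed and WT_watered, so bright probe sets as a class read lower in the wild-type groups, most of all in WT_stressed. Unequal SDs are not what a joint quantile normalization of the arrays leaves, and no source used here says whether the genotypes were processed apart. The part of these differences in any result below was not tested except where a value is given. Of the 8 leaf markers all but RBCS1, which was at background throughout, were above background in every group. The root markers had no match. In IPT_watered against WT_watered, where 19.2% of all probe sets were called, 3 of the 10 floral markers rose and 1 fell, and RTS of the anther list fell. In IPT_stressed against WT_stressed, where 46.1% were called, 2 floral markers rose and 3 fell, RTS, CYCB1 of the dividing-cell list and RBCS1 fell, and CHLH of the leaf list rose. Some of these were at background in both groups compared: MADS7, which rose, and RTS in watered plants, and MADS6 and MADS8, which fell, with RTS, CYCB1 and RBCS1 in stressed plants.

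A group mean was taken as above background when it exceeded the 95th percentile of the 106 probe sets for foreign sequences, which was 3.34, 3.15, 4.10 and 3.62 in IPT_stressed, IPT_watered, WT_stressed and WT_watered. By that measure 14 of 17 ARF genes and 13 of 26 IAA genes were above background in all 4 groups. ARF13, a miR160 target, and 10 IAA genes were at background in all 4. Since probe sets differ in brightness, no difference between the families was tested. The members with a mean of at least 5 over the 12 arrays, on which most results rest, were 13 ARF genes (means 5.43 to 10.03) and 13 IAA genes (means 6.18 to 10.56). In bulk leaf samples, fewer cells of a type and less RNA per cell cannot be told apart.

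The mean of WT_stressed was the lowest of the 4 for 9 of the 13 brighter ARF genes and for 10 of the 13 brighter IAA genes, close to the 65.0% of all 15303 probe sets with a mean of at least 5. No brighter member had its highest mean in WT_stressed, where 8.6% of the brighter probe sets had theirs. IPT_watered held the highest mean of 7 ARF and 5 IAA genes of the 26, and WT_watered that of 6 and 7, against 34.9% and 19.4% of the brighter probe sets in IPT_watered and WT_watered.

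Withholding water from wild-type plants, in the comparison labelled WT_stressed minus WT_watered, lowered 1 member beyond the test, ARF9, at a Benjamini-Hochberg adjusted p under 0.05 in limma. The background for that count was 0.42% of the 57194 probe sets tested (240 called), of which those called lower were 0.262% of all tested. The direction was shared more widely than the calls. All 17 ARF genes had a lower mean in WT_stressed (median change -0.52), as did 19 of 26 IAA genes (median -0.31), where 55.2% of all probe sets were higher. Among the brighter probe sets 17.5% were higher and the median was -0.28, whereas all 26 brighter members were lower, with medians of -0.56 for ARF and -0.62 for IAA. After quantile normalization of the arrays, which brings the median of the brighter probe sets to -0.06, all 26 were still lower, with medians of -0.35 for ARF and -0.40 for IAA. For 14 of the 43 members every WT_stressed array read below every WT_watered array, which 7.52% of all probe sets did; 13 of the 14 were brighter members, and 18.9% of the brighter probe sets did so.

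ARF9 (LOC4335934), of the ARF1/ARF2 type known as repressors, read 6.19, 6.61 and 6.26 on the WT_stressed arrays and 7.52, 7.37 and 7.56 on the WT_watered arrays. The arrays did not overlap. The means were 6.35 ± 0.22 and 7.48 ± 0.10, and the log2 change of -1.13 (SE 0.19; limma adjusted p = 0.0374) is a 2.19-fold lower level. In the transgenic groups ARF9 read 7.36, 7.96 and 7.26 in IPT_stressed and 7.46, 7.66 and 7.74 in IPT_watered, which overlapped (change -0.09, SE 0.19). The call was lost when any 1 of 8 arrays was left out (limma adjusted p for ARF9 up to 0.0974) and under 6 other settings.

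ARF24, the partner of ARF23 in a rice dimer known to control an actin-binding formin, was next among the ARF1/ARF2-type genes. Its values were 8.48, 8.39 and 8.37 in IPT_stressed, 8.52, 8.52 and 8.47 in IPT_watered, 6.33, 6.83 and 5.73 in WT_stressed and 7.37, 7.08 and 7.20 in WT_watered. Every WT_stressed array lay below every other array, and the transgenic arrays all lay above the wild-type ones. The change with water in wild type was -0.92 (SE 0.22; limma adjusted p = 0.0743), and in the transgenic plants it was -0.09. All 6 measured ARF1/ARF2-type genes (ARF1, ARF4, ARF7, ARF9, ARF23 and ARF24) were lower in WT_stressed than in WT_watered, with a median change of -0.56.

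The ETTIN-type genes ARF2, ARF3, ARF14 and ARF15, whose transcripts are cut through tasiR-ARF, were also lower in WT_stressed, all 4 of them without a call. A second, dimmer ARF2 probe set, at background in WT_stressed, was not lower there (change 0.085, SE 0.163). ARF3 read 6.41, 6.70 and 6.58 in IPT_stressed, 6.77, 6.62 and 6.58 in IPT_watered, 6.28, 5.55 and 6.09 in WT_stressed and 6.55, 6.95 and 6.73 in WT_watered. In these values WT_stressed stood below all other groups, with a change of -0.77 against WT_watered (SE 0.18, limma adjusted p = 0.0766). The difference between IPT_stressed and WT_stressed depended on the processing. It was 0.585 in the main fit, and 0.006 to 0.813 over the alternatives other than leaving out an array. It was not called with quantile normalization. ARF14 read 4.16, 4.11 and 3.84 in IPT_stressed, 4.41, 4.37 and 4.31 in IPT_watered, 3.63, 3.69 and 4.20 in WT_stressed and 4.39, 5.10 and 4.76 in WT_watered. It was a dim gene, at background in WT_stressed, and at least 1.57-fold lower there than in WT_watered (limma adjusted p = 0.0651). ARF15 overlapped in wild type, with 7.01, 7.45 and 8.02 in WT_stressed against 7.70, 8.07 and 7.66 in WT_watered. Its transgenic arrays did not overlap, with 7.21, 7.68 and 7.35 in IPT_stressed against 7.88, 8.01 and 7.79 in IPT_watered (change -0.48, SE 0.23; limma adjusted p = 0.650).

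**Figure D1:**
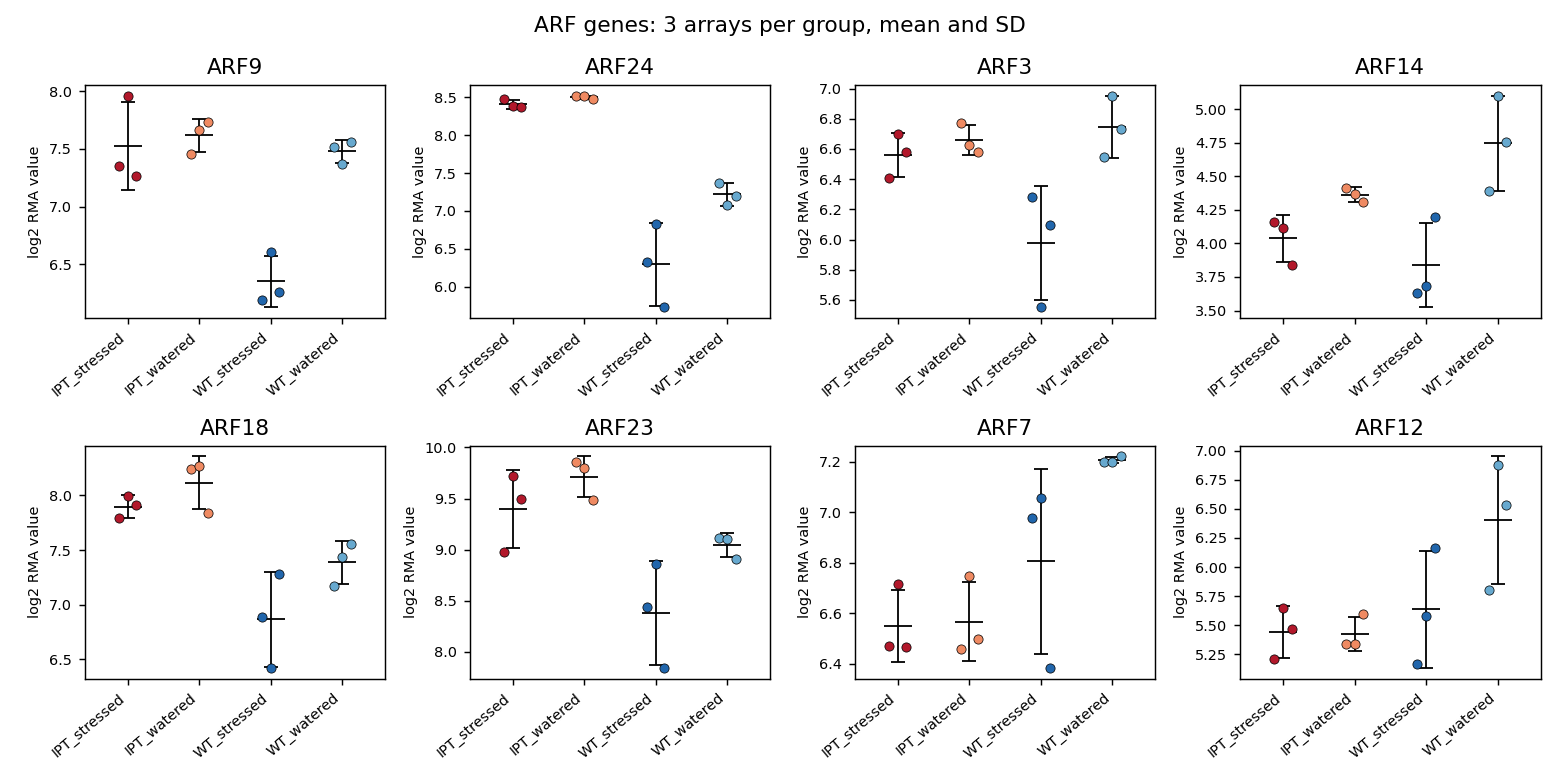
Log2 RMA values (vertical axes, each with its own range that does not start at 0) of 8 ARF genes on the 3 arrays of each labelled group, in the order IPT_stressed, IPT_watered, WT_stressed and WT_watered; points are arrays, the long dash is the mean and the bar the SD. ARF9, ARF24 and ARF3 were lowest in WT_stressed, and the ARF24 arrays of both transgenic groups (8.37 to 8.52) lay above all wild-type arrays (5.73 to 7.37).

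Of the IAA genes, IAA21 and IAA19 had the smallest p for water in wild type, and neither passed. IAA21 read 7.74, 7.50 and 7.55 in IPT_stressed, 7.64, 7.78 and 7.57 in IPT_watered, 7.01, 7.13 and 6.79 in WT_stressed and 7.49, 7.88 and 7.54 in WT_watered. WT_stressed was again the one low group (change -0.66 against WT_watered, SE 0.14; limma adjusted p = 0.0677). IAA19 read 6.45, 6.21 and 6.25 in IPT_stressed, 6.27, 6.14 and 5.97 in IPT_watered, 5.67, 5.95 and 6.06 in WT_stressed and 6.28, 6.48 and 6.49 in WT_watered. Its change was -0.52 in wild type (SE 0.14; limma adjusted p = 0.0983) and 0.18 in the transgenic plants. Of the 13 IAA genes with a mean under 5, 7 had a higher mean in WT_stressed than in WT_watered, where 55.2% of all probe sets did. None of the 7 was called, and all 7 were at background in both groups.

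Without water, the PSARK::IPT plants showed no called member in IPT_stressed minus IPT_watered, against 0.177% of all probe sets called (101 of 57194); 6 members had an unadjusted p under 0.05, as had 4589 of the 57194 probe sets. The median change was -0.10 over the ARF genes and -0.12 over the IAA genes, with -0.03 over all probe sets. Of the 26 brighter members 21 were lower, where 52.4% of the brighter probe sets were higher. The medians were -0.10 for brighter ARF genes, -0.25 for brighter IAA genes and 0.02 for all brighter probe sets. The 2 IAA genes with the smallest p were lower in IPT_stressed. IAA2 read 7.10, 6.83 and 6.83 in IPT_stressed, 8.10, 7.26 and 7.87 in IPT_watered, 6.44, 6.37 and 5.72 in WT_stressed and 6.62, 7.30 and 6.98 in WT_watered. Within each labelled genotype the stressed arrays lay below the watered ones, with changes of -0.82 (SE 0.25; limma adjusted p = 0.310) in the transgenic plants and -0.79 (SE 0.25; limma adjusted p = 0.135) in wild type. IAA13, known in rice as a repressor of lateral root formation, read 6.65, 7.60 and 6.97 in IPT_stressed, 8.37, 8.48 and 7.45 in IPT_watered, 7.84, 7.41 and 7.09 in WT_stressed and 8.14, 8.96 and 7.85 in WT_watered. The transgenic arrays overlapped (change -1.03, SE 0.35; limma adjusted p = 0.406), and the wild-type arrays were apart by a small gap (change -0.87, SE 0.35; limma adjusted p = 0.202). ARF10, a dim miR160 target, read 2.61, 3.27 and 2.72 in IPT_stressed and 3.16, 3.92 and 3.42 in IPT_watered, where only the watered mean of 3.50 was above background.

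**Figure D2:**
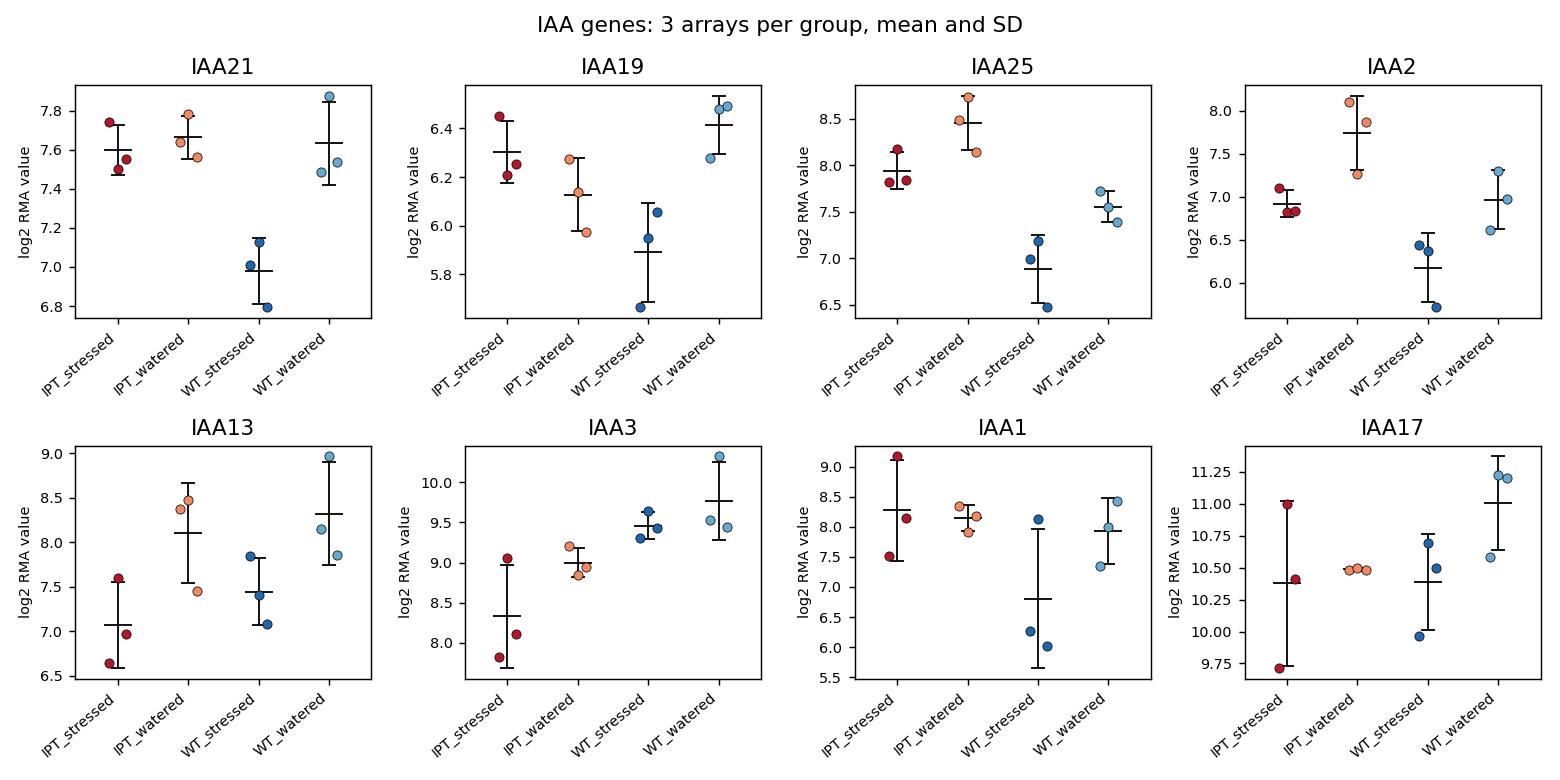
Log2 RMA values (vertical axes, each with its own range that does not start at 0) of 8 IAA genes on the 3 arrays of each labelled group, in the order IPT_stressed, IPT_watered, WT_stressed and WT_watered; points are arrays, the long dash is the mean and the bar the SD. IAA21 and IAA19 had tight groups, whereas IAA1 ranged over 6.02 to 8.13 within WT_stressed alone.

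Whether water acted differently in the 2 labelled genotypes was tested by the difference of the stress effects, (IPT_stressed minus IPT_watered) minus (WT_stressed minus WT_watered). No member was called, and neither was any of the 57194 probe sets (0.0%), although 8178 probe sets had an unadjusted p under 0.05 and limma with its trend and robust options called 5, none of them a member. Without IPT_stressed replicate 2 the same test called 40 probe sets, again none of them a member. The members with the smallest p all had a positive difference. It was 1.04 for ARF9 (SE 0.26; limma adjusted p = 0.234), 0.70 for IAA19 (SE 0.20; limma adjusted p = 0.246), 0.59 for IAA21 (SE 0.20; limma adjusted p = 0.272) and 0.83 for ARF24 (SE 0.31; limma adjusted p = 0.284). ARF3 had 0.67 and ARF14 0.58. The median difference was 0.39 over the 13 brighter ARF genes and 0.22 over the 13 brighter IAA genes, against 0.32 over all brighter probe sets; with quantile normalization the medians became 0.16, -0.00 and 0.06. The lower ARF9 level in stressed wild type is therefore not shown to differ from the effect in the transgenic plants.

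Over both labelled genotypes together, stressed minus watered, no member was called against 0.409% of all probe sets (234 of 57194), and 18 members had an unadjusted p under 0.05, as had 7916 of all 57194 probe sets. Of the 26 brighter members 16 did, and of the 15303 brighter probe sets 3441. All 26 brighter members had a negative mean change, as under both other scalings, where 29.2% of brighter probe sets were positive. The smallest p belonged to ARF9 (-0.61, SE 0.13; limma adjusted p = 0.0758), IAA2 (-0.81, SE 0.18; limma adjusted p = 0.0837) and ARF14 (-0.62, SE 0.14; limma adjusted p = 0.0858). ARF14 was the one member whose 6 stressed arrays all read below its 6 watered arrays, as 0.129% of all probe sets did. IAA25 followed at -0.59 (SE 0.15; limma adjusted p = 0.111).

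**Figure D3:**
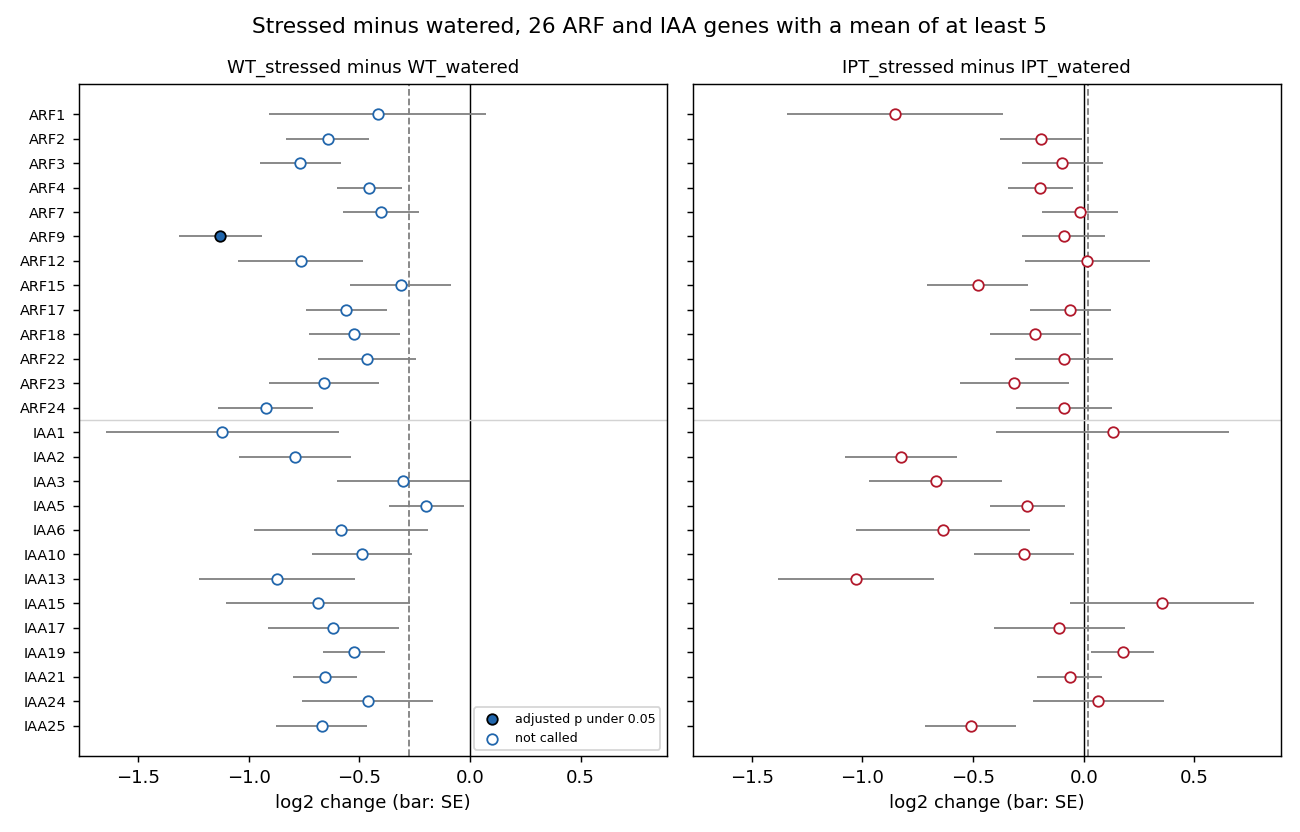
Log2 change, stressed minus watered (horizontal axis), of the 26 ARF and IAA genes with a mean of at least 5, in wild type (left) and PSARK::IPT plants (right); circles are changes, filled where the adjusted p was under 0.05, bars are limma's SE, and the dashed line is the median of all probe sets with a mean of at least 5. All 26 lay left of 0 in wild type and ARF9 alone was called. In PSARK::IPT plants 21 lay left of 0 and none was called. Of all probe sets with a mean of at least 5, 17.5% were higher in wild type and 52.4% in PSARK::IPT plants.

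The labelled genotypes differed far more widely, at watered plants already. In IPT_watered minus WT_watered, 19.2% of all probe sets were called (10981 of 57194), and 7 of the 43 members were: ARF24, ARF18 and IAA25 rose (10.3% of all probe sets did), and ARF7, ARF12, IAA30 and IAA31 fell (8.9% did). The members' share is close to that background, and the brighter members split 13 higher and 13 lower. ARF24, with the values given above, was 1.28 higher (SE 0.22; limma adjusted p = 0.00215), a 2.44-fold difference with no overlap.

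ARF18, a miR160 target, read 7.79, 7.99 and 7.91 in IPT_stressed, 8.24, 8.27 and 7.84 in IPT_watered, 6.89, 6.42 and 7.28 in WT_stressed and 7.17, 7.44 and 7.55 in WT_watered. All transgenic arrays lay above all wild-type ones; the watered difference was 0.73 (SE 0.21; limma adjusted p = 0.0289). IAA25 read 7.81, 8.18 and 7.84 in IPT_stressed, 8.48, 8.73 and 8.14 in IPT_watered, 6.99, 7.19 and 6.47 in WT_stressed and 7.72, 7.55 and 7.39 in WT_watered. It too was separated by genotype, by 0.90 in watered plants (SE 0.21; limma adjusted p = 0.0110).

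The ARF genes that fell were ARF7, of the ARF1/ARF2 type, and ARF12, an activator-type gene known in rice for root elongation. ARF7 read 6.47, 6.72 and 6.47 in IPT_stressed, 6.46, 6.75 and 6.50 in IPT_watered, 6.97, 7.06 and 6.38 in WT_stressed and 7.20, 7.20 and 7.22 in WT_watered. Its watered arrays did not overlap (change -0.64, SE 0.17; limma adjusted p = 0.0238), and its stressed arrays did. ARF12 read 5.21, 5.64 and 5.47 in IPT_stressed, 5.34, 5.34 and 5.60 in IPT_watered, 5.17, 5.58 and 6.17 in WT_stressed and 5.80, 6.88 and 6.53 in WT_watered. WT_watered was its high group, by 0.98 over IPT_watered (change -0.98, SE 0.28; limma adjusted p = 0.0315). IAA30 and IAA31 were at background in both groups: IAA30 read 2.53, 2.50 and 2.28 in IPT_watered against 3.49, 3.07 and 3.31 in WT_watered, and IAA31 read 2.77, 2.82 and 2.87 against 3.80, 3.57 and 3.06, so no fold is given.

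In the plants without water, IPT_stressed minus WT_stressed, 46.1% of all probe sets (26357 of 57194) and 19 of the 43 members were called, again close to the background. By family, 8 ARF genes rose and none fell (ARF3, ARF4, ARF9, ARF16, ARF18, ARF22, ARF23 and ARF24), while 5 IAA genes rose (IAA1, IAA2, IAA19, IAA21 and IAA25) and 6 fell (IAA3, IAA4, IAA16, IAA26, IAA30 and IAA31). Of all probe sets 19.3% rose and 26.7% fell, no difference between the families was tested, and with quantile normalization 3 ARF genes rose and 1 fell while no IAA gene rose and 1 fell. Of the 6 that fell, IAA3 was above background and the other 5 were at background in both groups. Among the 26 brighter members 12 rose and 1 fell; 45.7% of all brighter probe sets rose and 6.57% fell. The brighter ARF genes had a median difference of 0.58, the brighter IAA genes 0.43 and all brighter probe sets 0.52, and with quantile normalization these medians became 0.01, -0.05 and 0.07.

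ARF24 had the largest difference of any ARF gene, 2.12 (SE 0.22; limma adjusted p = 4.19e-05), a 4.34-fold higher level in IPT_stressed. ARF9 was 1.17 higher (SE 0.19; limma adjusted p = 0.000576) and ARF18 1.03 higher (SE 0.21; limma adjusted p = 0.00221). Under quantile normalization ARF24, ARF9 and ARF18 were still called higher, ARF7 and IAA3 were called lower, and no other member was called. ARF23, the dimer partner of ARF24, read 8.98, 9.72 and 9.50 in IPT_stressed, 9.86, 9.79 and 9.48 in IPT_watered, 8.44, 8.86 and 7.84 in WT_stressed and 9.12, 9.10 and 8.91 in WT_watered. It was 1.02 higher in IPT_stressed (SE 0.25; limma adjusted p = 0.00662). A second, dimmer ARF23 probe set gave a difference of 3.20 in stressed and 2.41 in watered plants, against 1.02 and 0.67 for the brighter one; its name marks probes that may also match other transcripts.

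Among the IAA genes IAA3 was the one bright member that fell. It read 7.83, 9.06 and 8.11 in IPT_stressed, 9.21, 8.85 and 8.95 in IPT_watered, 9.30, 9.65 and 9.44 in WT_stressed and 9.53, 10.32 and 9.44 in WT_watered. The transgenic arrays all lay below the wild-type arrays, and the stressed difference was -1.13 (SE 0.30; limma adjusted p = 0.0102). IAA1 had the largest rise, 1.47 (SE 0.53; limma adjusted p = 0.0387), but its arrays overlapped, with 7.51, 9.17 and 8.15 in IPT_stressed against 6.26, 8.13 and 6.02 in WT_stressed; it was not called when any 1 of 6 single arrays was left out. IAA25 was 1.06 higher (SE 0.21; limma adjusted p = 0.00190) and IAA2 0.74 higher (SE 0.25; limma adjusted p = 0.0316), both without overlap.

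No member was called in either genotype comparison once the GAPDH 3′ minus 5′ difference of each array was added to the model as a covariate; of all probe sets 39 and 129 were then called in watered and stressed plants, in place of 10981 and 26357. The changes of ARF24 were 1.14 and 1.93 with the covariate, against 1.28 and 2.12 without it. The GAPDH measure differs between the labelled genotypes, and the 2 cannot be told apart in these arrays. ARF2 depended on its probe set, with -0.14 in watered plants for the brighter one and 0.65 (limma adjusted p = 0.0176) for the dimmer.

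**Figure D4:**
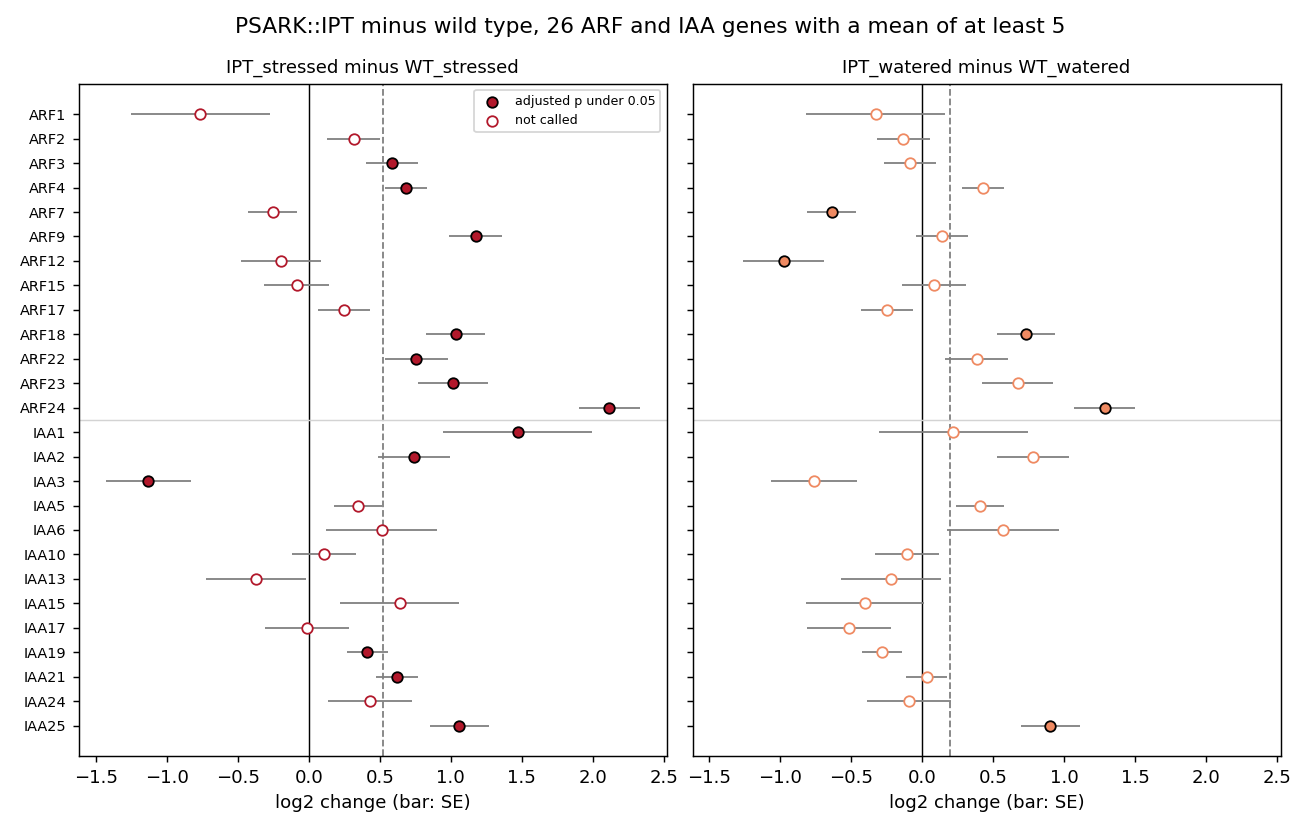
Log2 change, PSARK::IPT minus wild type (horizontal axis), of the 26 ARF and IAA genes with a mean of at least 5, in stressed (left) and watered (right) plants; circles are changes, filled where the adjusted p was under 0.05, bars are limma's SE, and the dashed line is the median of all probe sets with a mean of at least 5 (0.52 and 0.20). ARF24 lay farthest right in both panels.

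The families also differed in how far replicate arrays spread, as a description with no test. The SD within groups, pooled over the 4 groups, had a median of 0.27 over the 13 brighter ARF genes and 0.42 over the 13 brighter IAA genes, against 0.29 over all brighter probe sets. Of the IAA genes 9 lay above that last value, and of the ARF genes 5. IAA1 had the widest spread of the IAA genes (0.77, more than 96.1% of brighter probe sets), followed by IAA15 (0.60) and IAA6 (0.57), a gene linked in rice to drought tolerance and tillering. At the other end IAA19 (0.15) and IAA21 (0.16) were steadier than any ARF gene. ARF1 (0.71) had the widest spread of the ARF genes.

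The array deviations of the IAA genes ran together. The mean correlation of within-group deviations between pairs of brighter IAA genes was 0.24 over the 12 arrays, against 0.07 between pairs of ARF genes, 0.12 between ARF and IAA genes and 0.01 between all brighter probe sets; genes on 1 array share its RNA and hybridization, and no test was made. Single arrays did not always set the families apart. IPT_stressed replicate 2 was the highest of its group for 9 of 13 brighter IAA genes and 10 of 13 ARF genes, against 38.1% of brighter probe sets. WT_stressed replicate 2 was so for 9 of 13 IAA genes and 5 of 13 ARF genes, against 24.6%. In IPT_watered the most was 7 of 13 IAA genes, on replicate 1, which was highest for 4 of 13 ARF genes, against 25.6% of brighter probe sets. IAA17, the brightest IAA probe set, read 9.71, 11.002 and 10.41 in IPT_stressed, 10.48, 10.50 and 10.48 in IPT_watered, 9.97, 10.70 and 10.50 in WT_stressed and 10.58, 11.23 and 11.20 in WT_watered. Its range within IPT_stressed exceeded every difference between its group means.

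**Figure D5:**
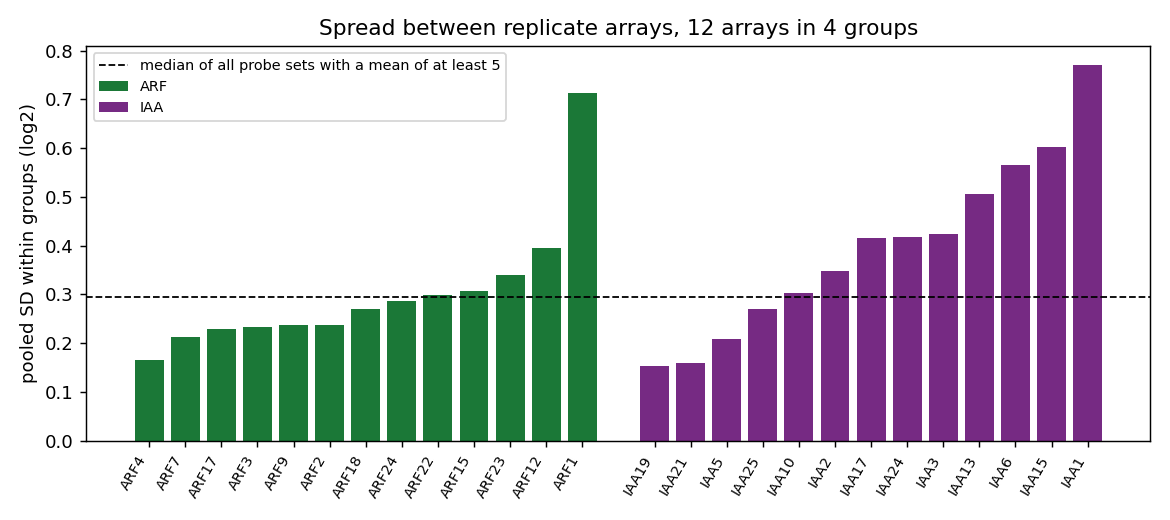
SD of log2 values within groups, pooled over 4 groups of 3 arrays (vertical axis, from 0), for the 13 ARF and 13 IAA genes with a mean of at least 5, each family in rising order. The dashed line is the median of all probe sets with a mean of at least 5 (0.29), with 5 ARF and 9 IAA genes above it.

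The other auxin genes that could be named, by role, were 5 of 9 PIN transporters, 2 synthesis genes, 9 GH3 genes for conjugation and SAUR39; the names in use gave no receptor and no AUX transporter. None of the 17 was called in WT_stressed minus WT_watered, IPT_stressed minus IPT_watered, their difference or the mean of both. In IPT_watered minus WT_watered 3 rose and 2 fell, beside 10.3% and 8.9% of all probe sets. GH3.5, known as JAR1 for conjugating jasmonate and not auxin, rose by 1.36 (SE 0.30; limma adjusted p = 0.00971), with 6.99, 7.57 and 7.01 in IPT_watered against 5.98, 5.01 and 6.49 in WT_watered. The transporter gene OsPIN5a rose by 0.81 and GH3.7 by 0.65, while GH3.1 and GH3.11 fell at background in both groups. In IPT_stressed minus WT_stressed 6 rose and 4 fell, beside 19.3% and 26.7% of all probe sets, the 4 again at background in both groups (GH3.1, GH3.4, OsYUCCA1 and OsPIN2). GH3.5 rose by 2.23 (SE 0.30; limma adjusted p = 0.000227), with 7.36, 7.44 and 7.12 in IPT_stressed against 5.30, 4.97 and 4.98 in WT_stressed. SAUR39, a small auxin-induced gene known in rice as a negative regulator of auxin synthesis and transport, read 6.50, 4.74 and 5.99 in IPT_stressed against 4.62, 4.40 and 3.91 in WT_stressed and rose by 1.43. GH3.2, which conjugates auxin, averaged 5.67 in IPT_stressed and was at background in WT_stressed. OsPIN4 and GH3.7, called higher as well, averaged 5.01 and 4.61 in IPT_stressed and were also at background in WT_stressed. OsPIN5a rose by 1.03.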

How the data were processed

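RNA from rice flag leaves was hybridized to 12 Affymetrix rice arrays, 3 in each of 4 groups taken from the labels. The deposited values are on a log2 scale and were made by the authors with RMA, per the submitters' processing notes; software and version are not given in the sources used here. They were used as deposited. Of 57381 probe sets, 123 controls and 64 reporters were left out of the tests. Gene names came from the array annotation joined to RefSeq rice symbols; 22436 probe sets had exactly 1 gene.

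One mean per group was fitted with limma 3.58.1 in R 4.3.3 (lmFit, eBayes) over all 12 arrays and 57194 probe sets, with Benjamini-Hochberg adjustment over all and calls at an adjusted p under 0.05. The scripts were tested on simulated data. With 3 arrays a group, the smallest two-sided p of an exact test is 0.1, and precision is limited by the number of arrays. A fold was given as a lower bound where 1 group was at background, computed against that group's background level, and not at all where both were.

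Values on every array were given for ARF3, ARF9, ARF14 and ARF24, for called members (where over 8 were called, the 4 largest changes of each family) and for the 2 smallest p of each family in each comparison; at most 6 called genes of the other auxin list were named per comparison by largest change, and genes at background in both groups were named beside them without values. IAA6, IAA15, IAA17 and ARF1 were chosen after their values were seen. The members and lists were chosen with earlier results of these data known. Alternatives were equal array medians, quantile normalization, limma's trend and robust options, a minimum mean of 5, the mean of a gene's probe sets, only the arrays compared, a replicate block, the GAPDH covariate and each array left out. The main model did not pair same-numbered replicates. Their deviations correlated at -0.10 to 0.19, over 0.1 in 9 of 18 pairs, and those of differently numbered replicates at -0.23 to 0.15. Whether same-numbered arrays share a batch was not tested, and the replicate block was run as an alternative for that reason. No sequence was used.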

Additional observations from a re-analysis of the deposited data

Results flagged for a closer look

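A signal outside the main measurement drew attention: 2 reporter probe sets for foreign sequences, which were left out of the tests, read far above the background level on arrays of both stressed groups. The reporter RPTR-Os-K01193-1_at averaged 10.16 in IPT_stressed, against 2.08 in IPT_watered, and 8.98 in WT_stressed, against 3.48 in WT_watered. The reporter RPTR-Os-AF292559-4_s_at averaged 7.97 in IPT_stressed, against 2.11 in IPT_watered, and 7.68 in WT_stressed, against 2.61 in WT_watered. Background levels were 3.34, 3.15, 4.10 and 3.62 in IPT_stressed, IPT_watered, WT_stressed and WT_watered. The 2 reporters are among the 106 probe sets for foreign sequences behind those levels. Their part in the ARF and IAA results was not tested. Groups of 3 arrays are too small for the check of single far-off samples.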

How the results depend on the processing

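The count of 1 called member in WT_stressed minus WT_watered became 5 with arrays at equal medians (ARF3, ARF9, ARF14, ARF24 and IAA21), and 0 with quantile normalization, the trend and robust options, a minimum mean of 5, only the arrays compared, the replicate block or the GAPDH covariate; leaving out single arrays gave 0 to 5, with 5 without WT_stressed replicate 3, 2 without WT_stressed replicate 1 or 2, and 0 without IPT_stressed replicate 1 or 3 or any 1 IPT_watered or WT_watered array. The 7 called in IPT_watered minus WT_watered became 0 with the GAPDH covariate and 3 to 12 without single arrays (3 without IPT_watered replicate 1, 12 without WT_stressed replicate 3). The 19 called in IPT_stressed minus WT_stressed became 5 with quantile normalization, 12 with a minimum mean of 5, 0 with the GAPDH covariate, and 12 to 19 without single arrays (12 without IPT_stressed replicate 3). The 0 called for stressed minus watered over both genotypes became 2 with the replicate block (IAA13 and IAA25) and 0 to 1 without single arrays (ARF9 without IPT_stressed replicate 2, ARF14 without WT_stressed replicate 3). The 0 called in IPT_stressed minus IPT_watered and in the difference stayed 0 in every setting run.

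Small changes turned sign: ARF3 in IPT_watered minus WT_watered at 0.009 with equal medians and 0.019 without WT_watered replicate 2, ARF9 in IPT_stressed minus IPT_watered at 0.041 without IPT_stressed replicate 3 (-0.308 to 0.041 over single arrays left out), and ARF9 in IPT_watered minus WT_watered at -0.021 with quantile normalization and -0.185 with the GAPDH covariate. The causes were not tested. The 37 results for named genes gave 723 combinations of a result and a setting. Of these, 634 kept direction and call, 74 lost the call, 10 gained one and 5 changed sign. Equal medians moved the median of all probe sets by -0.10 in wild type with water and by 0.23 in IPT_stressed minus WT_stressed.

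Over all probe sets, the 240 called in WT_stressed minus WT_watered became 848 with equal medians (12.1% of them higher, against 37.5%) 429 with quantile normalization (52.4% higher), 2 with only the arrays compared, and 40 to 2314 without single arrays (40 without IPT_stressed replicate 1, 2314 without WT_stressed replicate 3). The 101 called in IPT_stressed minus IPT_watered became 31 to 816 without single arrays (816 without IPT_stressed replicate 2), the 234 over both genotypes 64 to 1056 (1056 without the same array), and the 0 for the difference 0 to 40 (40 without the same array). The share higher among those called in IPT_stressed minus WT_stressed was 42.0%, and 70.3% with equal medians; in IPT_watered minus WT_watered it was 53.6%, and 69.8% with equal medians.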
